A study of Homo sapiens with 2 samples.

Results

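The members were the protein-coding genes of chromosome 19 whose symbol is ZNF followed by a number, the systematic name for zinc finger genes. They made up 247 of the 57773 genes counted. GENCODE 44 lists 249 such genes, of which ZNF229 and ZNF8 had no matching identifier among the counted genes. RNA sequencing data came from REH and 697, human cell lines of acute lymphoblastic leukemia of B-cell precursors (BCP-ALL), with 1 untreated library of each. REH bears an ETV6/RUNX1 fusion, and its other ETV6 allele is deleted. The 697 line lacks that fusion. The lines come from different patients and differ in much more than the fusion, so a difference between the libraries cannot be told apart from a difference between patients, cultures or library preparations. The variation between repeat libraries of a line was not measured.

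Zinc fingers of the C2H2 type are short protein folds that hold a zinc ion and read DNA, and proteins of this family carry them in long tandem arrays. Most of the chromosome 19 members also carry a KRAB domain, which recruits the corepressor TRIM28 and, through it, histone methylation and silencing. The genes arose by repeated tandem duplication and lie in clusters of related copies, and many of their proteins bind and silence retrotransposons.

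The label was first checked against sequence. In the translated canonical transcripts, 245 of 247 members held at least 1 C2H2 finger, and the members without one were readthrough genes that join neighbouring loci. The median number of fingers was 12 and the largest was 39, in ZNF729. A KRAB-like stretch was found in 208 members and not in 39. Checked against markers fixed for the cell type, both libraries were of B-precursor kind: PAX5 had 39793 reads in REH and 45212 in 697, and EBF1 had 18041 and 12116. Of the 7 B-precursor markers found, 6 were abundant in both libraries and VPREB1 had 3 reads in REH against 10039 in 697. Among the 6, CD79B had 24198 reads in REH and 4443 in 697, and DNTT had 57392 and 163775. The T-cell markers CD2 and CD3D had 0 reads in both, CD3G had 2 in REH and 1 in 697, and CD3E had 45 and 0. The 4 T-cell markers summed to 0.935 CPM (read counts scaled to library size) in REH and 0.0271 CPM in 697. The 4 myeloid markers summed to 253 CPM in REH and 2.25 CPM in 697, which in REH came nearly all from MPO, with 12643 reads against 12. In 697 most of it came from CSF1R, with 61 reads against 30 in REH. The part of these marker differences in the results below was not tested.

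The REH library held 45188375 reads in genes and the 697 library 41097497. Reads that mapped to several places, which are not counted for any gene, made up 10.8% of the REH library and 15.4% of the 697 library. This matters for a duplicated family. Reads that fell on more than 1 gene were not counted either, and made up 4.58% of the REH library and 4.41% of the 697 library. At least 50% of their 31-base words were shared with transcripts of other genes by 17 of the 247 members, and their values are uncertain. Such sharing covers genes that overlap at the same place as well as copies elsewhere. ZNF57, for example, shared 72.0% of its words, and 75.2% of its exon bases overlapped other genes. Of the reads counted in genes, the members together held 0.50% in REH and 0.457% in 697. Genes were counted on either strand, so reads where exons of a member and an antisense gene overlap cannot be told apart and counted for neither gene.

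Members were expressed at low to moderate levels in both lines. At least 10 reads were counted for 226 members in REH and for 219 in 697. Both lines reached that number for 215 members, REH alone for 11, 697 alone for 4 and neither line for 17. Of those 17 members, 6 had 0 reads in both libraries and none had more than 7. Compared per kb of exon, the median member stood at 2.82 CPM per kb in REH and 2.96 in 697, below the medians of all protein-coding genes of 5.51 and 6.19. The highest level in either line belonged to ZNF146, whose protein consists of fingers alone, at 44 CPM per kb in REH and 58.6 in 697. ZNF428 followed in REH at 33.1, with 21.3 in 697. ZNF581 ranked higher in 697, at 26.2 CPM per kb against 14.9 in REH. In the plot of reads of each member in both libraries, most members lay along the diagonal and a small number lay far from it.

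**Figure D1:**
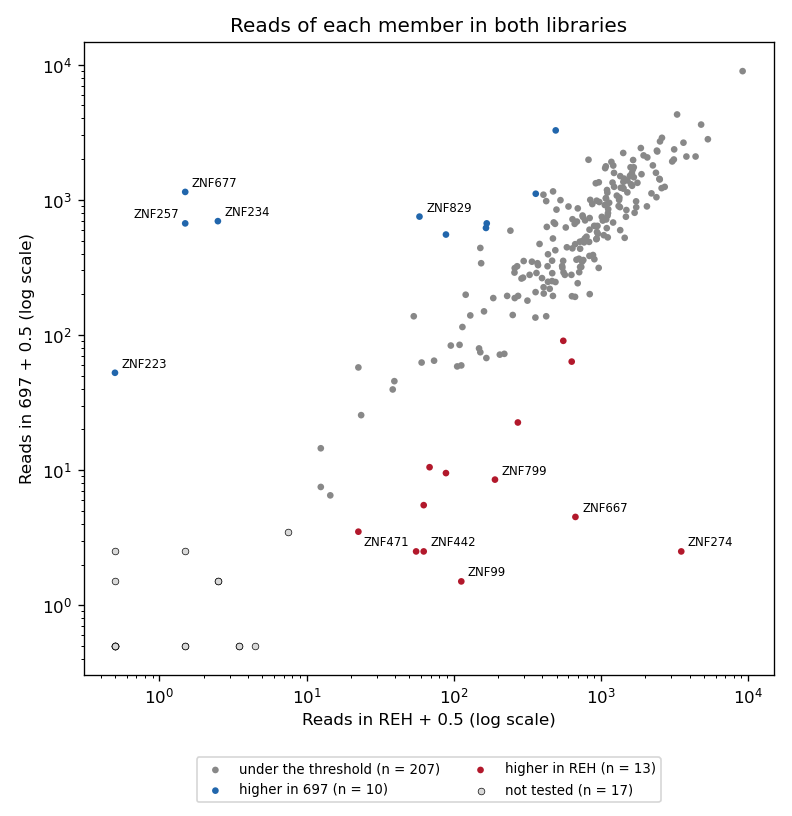
Reads of each of the 247 members in REH (x axis) and 697 (y axis), with 0.5 reads added, both on log scales. Grey points are the 207 members under the threshold, red and blue points the 13 and 10 members past it, and open points the 17 members that were not compared. ZNF274 lies at the lower right with 3508 reads against 2, and ZNF677 at the upper left with 1 read against 1144.

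The 230 members with at least 10 reads in a library were compared. A member was called at a log2 ratio of REH over 697 of at least 2 in size, which is a 4-fold difference, after 0.5 reads were added to each count. By this rule 13 members (5.65%) were higher in REH, where 12.5% of all 19145 genes compared were, and 10 members (4.35%) were higher in 697, where 8.15% of all genes were. The shares of the members past the threshold were thus below the background in both directions. Other protein-coding genes of chromosome 19 showed 13.2% higher in REH and 4.02% higher in 697. ZNF genes of other chromosomes showed 7.52% and 3.98%.

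In the bulk of their ratios the members were also more alike between the lines than coding genes at large, and ZNF genes elsewhere came close to them. Their median log2 ratio was -0.04, against 0.05 for all genes, 0.22 for the other coding genes of chromosome 19 and 0.11 for ZNF genes elsewhere. The interquartile range of the members' log2 ratios was 1.00, against 1.5 for all genes, 1.3 for protein-coding genes and 1.15 for ZNF genes elsewhere. A ratio within 1 of 0 was seen for 77.8% of the members, 73.9% of ZNF genes elsewhere and 65.0% of protein-coding genes. Among genes of like mean level, from 0.993 to 55.8 CPM, the shares were 78.6% of 206 members and 62.1% of 7234 other coding genes. Ratios above and below 0 were found for 108 and 122 members. Without scaling of the library totals all ratios rose by 0.31, and the split was 143 and 87.

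The members without a KRAB-like stretch held none of the calls: 0 of the 35 compared, against 23 of the 195 with one. Of those with one, 6.67% were higher in REH and 5.13% in 697, below the 12.5% and 8.15% of all genes. The group without it is small, and the difference between the groups was not tested. The median log2 ratios of these groups were 0.02 and -0.07. Levels per kb were higher without KRAB, with medians of 4.58 CPM per kb in REH and 5.86 in 697, against 2.4 and 2.62 with it. Of the 23 called members, 9 had at most 3 reads in the lower library, so that the size of their ratio rests on very few reads and its interval is wide. Intervals given for a ratio are 95% Clopper-Pearson intervals, which cover counting error only.

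**Figure D2:**
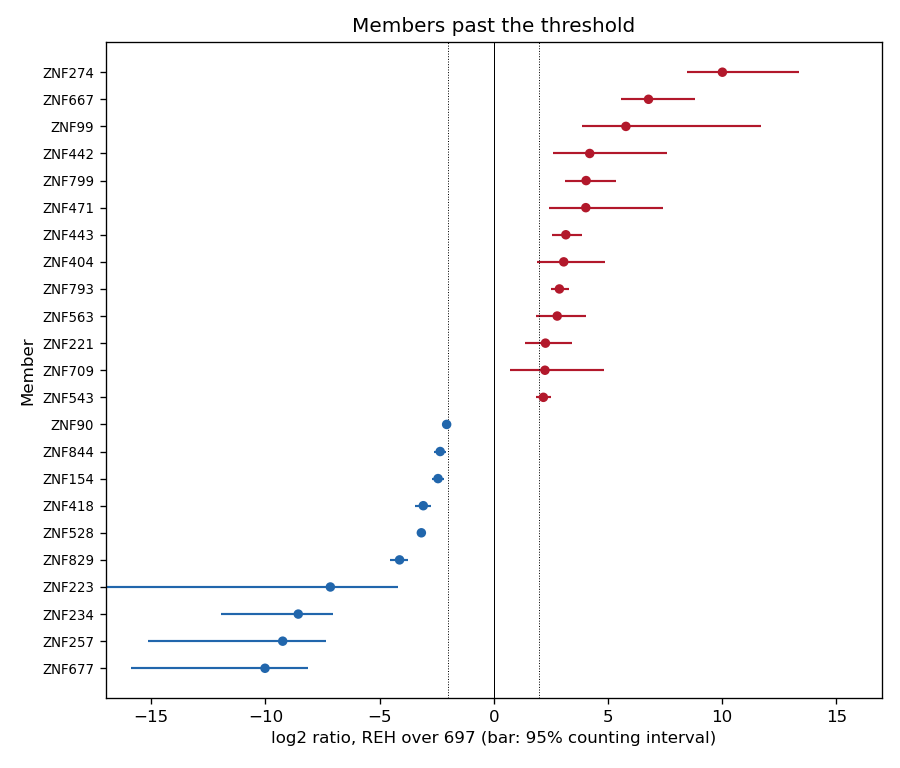
Log2 ratio of REH over 697 for the 23 members past the threshold, with the 95% counting interval as a bar and the threshold of 2 as dotted lines. ZNF274 and ZNF677 lie at the ends, at 10.01 and -10.02. The bar of ZNF223, which had 0 reads in REH, has no lower end and runs to the edge of the plot.

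ZNF274 showed the widest difference in favour of REH. This gene encodes a KRAB protein known to bind at the 3′ ends of other zinc finger genes and to recruit the histone methyltransferase SETDB1 there. It had 3508 reads in REH and 2 in 697, or 69.8 and 0.0541 CPM, a log2 ratio of 10.01 (8.48 to 13.38). The gene lies on the plus strand at chr19:58183029-58213562 (GRCh38, GENCODE 44) in the cluster at the end of the long arm. Its neighbours on the centromere side, ZNF135 and ZNF329, had 822 and 845 reads in REH and 1980 and 999 in 697, and the next member, ZNF544, had 1067 and 1715. The adjacent members thus had reads in both libraries. ZNF135, ZNF329 and ZNF544 were chosen for their position after their values were seen.

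ZNF677 showed the opposite pattern. It is a KRAB gene best known for promoter methylation in solid tumors. It had 1 read in REH and 1144 in 697, a log2 ratio of -10.02 (-15.91 to -8.12), at chr19:53235381-53254898 on the minus strand. Reads on each side of it were similar in both libraries, with 382 and 471 for ZNF665 and 777 and 518 for ZNF845, both named for their position only. ZNF677 is thus present in 697 at 31 CPM and close to the depth limit in REH, where 3 reads correspond to 0.0597 CPM.

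The promoters of these genes are shown because both were all but without reads in the opposite line. The bases lie before the start site that RefSeq gives and outside annotated exons (GRCh38.p14), with CG dinucleotides, the sites of DNA methylation, in capitals. ZNF274 is at chr19:58182811-58183028 on the plus strand with 12 CG in the 218 bases shown, and ZNF677 at chr19:53254899-53255073 on the minus strand with 17 CG in 175 bases.
ZNF274: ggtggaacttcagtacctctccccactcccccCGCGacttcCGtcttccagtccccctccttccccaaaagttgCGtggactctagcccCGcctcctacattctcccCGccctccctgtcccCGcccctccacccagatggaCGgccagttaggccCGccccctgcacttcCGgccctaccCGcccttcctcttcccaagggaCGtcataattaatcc
ZNF677: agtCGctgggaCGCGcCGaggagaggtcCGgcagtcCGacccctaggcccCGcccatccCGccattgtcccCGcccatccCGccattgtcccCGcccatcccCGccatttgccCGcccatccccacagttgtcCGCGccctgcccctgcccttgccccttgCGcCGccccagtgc
Over the full windows, from 250 bases before to 50 after the start, ZNF274 held 16 CG and ZNF677 held 34. The median was 20 over the 216 members with a RefSeq window and 22 over 14980 protein-coding genes, with quartiles of 9 and 32. Members higher in either line had a median of 16 CG (10 and 9 windows), and those under the threshold 20.5 (184 windows). No methylation was measured in these libraries.

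A further 3 members were close to 0 in REH and clearly present in 697. ZNF257 had 1 and 669 reads, a log2 ratio of -9.25 (-15.14 to -7.35). ZNF234 had 2 and 695 reads, a ratio of -8.56 (-11.93 to -7.03). ZNF223 had 0 and 52 reads and was at least 23.6-fold higher in 697, set against a floor of 3 reads. ZNF223 and ZNF234 lie in the same cluster, with ZNF284, ZNF224 and ZNF225 between them. ZNF284 had 60 reads in REH and 62 in 697, ZNF224 had 288 and 261, and ZNF225 had 397 and 263, all between -0.49 and 0.15 on the log2 scale. ZNF223, ZNF284 and ZNF225 fell outside the rule for named genes and were chosen after their values were seen.

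In the other direction, ZNF667 had 670 reads in REH and 4 in 697, a log2 ratio of 6.78 (5.58 to 8.82). ZNF99 had 112 and 1, a ratio of 5.78 (3.86 to 11.68). ZNF667 and the next member ZNF471, chosen after its values were seen, formed a run of 2 neighbours higher in REH that spans 90.9 kb. ZNF471 had 55 reads in REH and 2 in 697, a ratio of 4.03 (2.42 to 7.42). The member after them, ZNF470, went the other way, with 472 and 1154 reads and a ratio of -1.73 (-1.89 to -1.58), under the threshold.

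Apart from a run in cluster 3, the other called members had at least 5 reads in both libraries. ZNF528 had 492 reads in REH and 3265 in 697, a log2 ratio of -3.17 (-3.31 to -3.04). ZNF829 had 58 and 751 (-4.13, -4.55 to -3.75), and ZNF418 had 88 and 553 (-3.09, -3.44 to -2.77). ZNF154, a KRAB gene often methylated in tumors, had 167 and 669 reads, a ratio of -2.44 (-2.70 to -2.20). ZNF844 had 165 and 619 reads (-2.35, -2.61 to -2.10), but shared 54.7% of its 31-base words with other genes. Higher in REH were ZNF793, with 632 and 63 reads (2.87, 2.51 to 3.28), and ZNF543, with 554 and 90 (2.17, 1.85 to 2.52). ZNF404 had 62 reads in REH and 5 in 697 (3.06, 1.89 to 4.86). ZNF221 had 68 and 10 (2.26, 1.35 to 3.45) and ZNF90 had 360 and 1109 (-2.07, -2.24 to -1.89), both chosen after their values were seen. Nearest to the threshold from outside were ZNF69 at -1.98 and ZNF626 at -1.87, and from inside ZNF90 and ZNF543.

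Along the chromosome, 233 members fell into 10 clusters, separated by gaps of at least 500 kb, and 14 were scattered. Called members were spread over clusters 3, 4 and 6 to 10. Of the 18 runs of called neighbours, 16 held a single member, 1 held 2 and 1 held 5. Most called members thus had no adjacent member called in the same direction, as the plot of ratios by order shows. Whether the neighbours were at like levels was not tested.

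**Figure D3:**
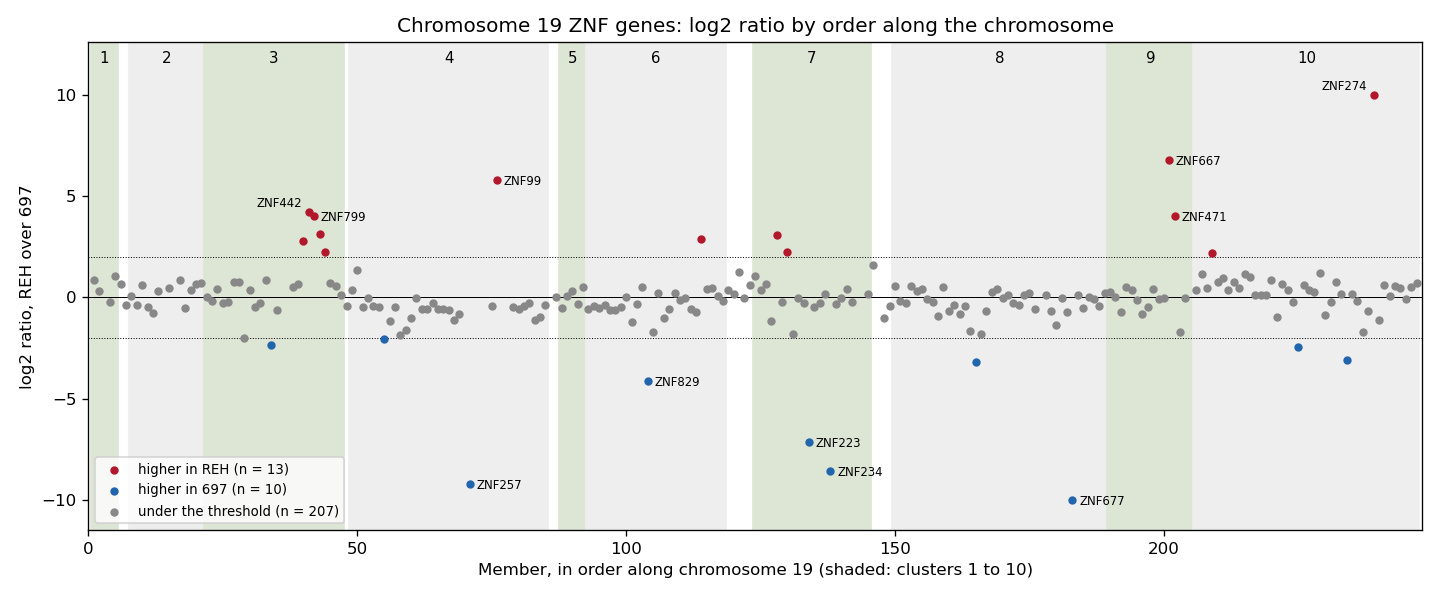
Log2 ratio of REH over 697 (y axis) for the 230 members compared, in their order along chromosome 19 (x axis), with clusters 1 to 10 shaded and the threshold of 2 dotted. Most members lie near 0, and the called members, in red and blue, stand singly except for the run of 5 in cluster 3 and the pair ZNF667 and ZNF471 in cluster 9.

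The run of 5 lay in cluster 3 on the short arm, where 26 members occupy chr19:11483427-12640098. In order, these neighbours were ZNF563 (88 reads in REH and 9 in 697), ZNF442 (62 and 2), ZNF799 (190 and 8), ZNF443 (272 and 22) and ZNF709 (22 and 3). ZNF563 and ZNF709 are outside the rule for named genes and were chosen after their values were seen. The log2 ratios were 2.78 (1.85 to 4.02), 4.20 (2.60 to 7.59), 4.04 (3.12 to 5.36), 3.15 (2.56 to 3.88) and 2.24 (0.69 to 4.81). Over the 196 kb the members summed to 634 reads in REH and 44 in 697, a log2 ratio of 3.40 (2.96 to 3.88). The run was picked by these ratios, so a sum past the threshold was fixed by that choice. The members on either side, ZNF44 and ZNF564, had 743 and 348 reads and 14 and 6 reads, with ratios of 0.65 and 0.71. The other 19 members of cluster 3 compared had a median of 0.11.

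Levels in the run were low in REH as well, between 0.0769 CPM per kb for ZNF709 and 2.03 for ZNF443. ZNF443 and ZNF709 shared 56.0% and 78.8% of their 31-base words with other genes. Exon overlap with other genes covered 7.70% of ZNF443, so reads of one copy may be missing or placed on another. It covered 79.4% of ZNF709, whose reads may be missing because they fell on more than 1 gene. ZNF442, ZNF563 and ZNF799 shared 11.2%, 13.6% and 33.7%. All members of the run go the same way by its definition, and the part of shared sequence in their ratios was not tested. Elsewhere in the cluster, ZNF844 was higher in 697, and ZNF69 at 151 and 440 reads lay just under the threshold in that direction.

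**Figure D4:**
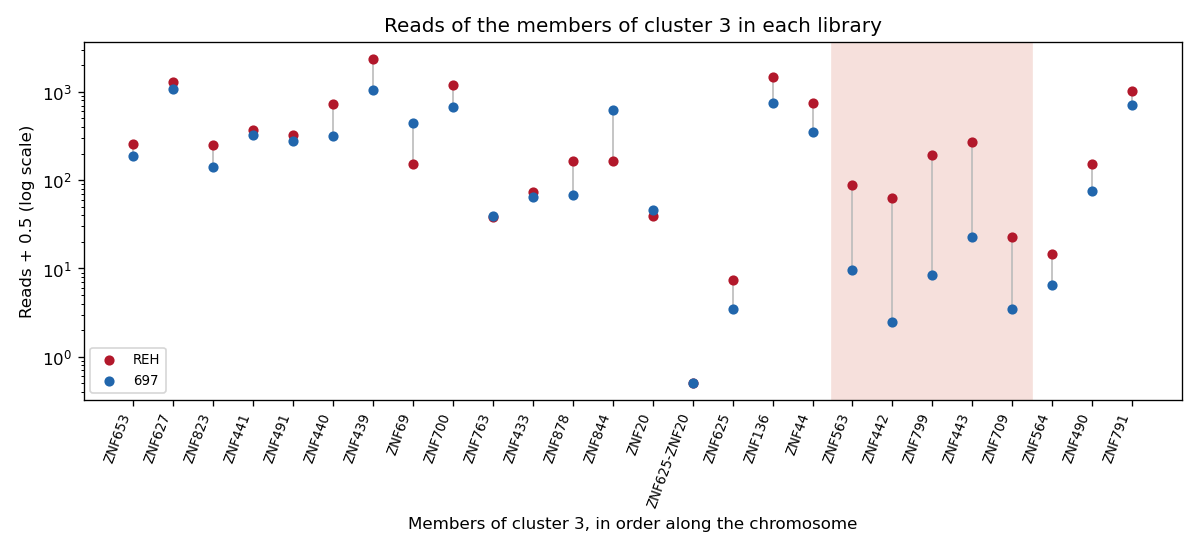
Reads in REH (red) and 697 (blue), with 0.5 reads added and on a log scale, for the 26 members of cluster 3 in order along the chromosome. The shaded run from ZNF563 to ZNF709 holds 62 to 272 reads in REH for 4 of its members and 22 for ZNF709, and 2 to 22 reads in 697. On either side of it the points of both lines lie closer together.

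The promoters of 4 of these neighbours are printed to show a stretch that they share. All lie on the minus strand before the RefSeq start (GRCh38.p14) and outside annotated exons, at chr19:12333721-12333883, chr19:12365684-12365802, chr19:12401275-12401521 and chr19:12441083-12441271. Capitals mark the longest stretch common to all 4, of 12 bases.
ZNF563: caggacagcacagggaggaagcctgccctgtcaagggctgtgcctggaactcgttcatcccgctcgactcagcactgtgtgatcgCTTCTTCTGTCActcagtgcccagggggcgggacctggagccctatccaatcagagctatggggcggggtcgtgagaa
ZNF442: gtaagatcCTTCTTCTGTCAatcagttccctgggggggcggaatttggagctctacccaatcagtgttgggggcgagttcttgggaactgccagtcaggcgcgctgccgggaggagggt
ZNF799: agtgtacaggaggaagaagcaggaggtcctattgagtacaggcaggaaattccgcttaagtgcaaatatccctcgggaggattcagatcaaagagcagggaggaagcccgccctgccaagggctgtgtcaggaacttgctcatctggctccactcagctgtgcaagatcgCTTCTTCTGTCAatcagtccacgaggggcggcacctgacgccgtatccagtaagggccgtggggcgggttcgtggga
ZNF443: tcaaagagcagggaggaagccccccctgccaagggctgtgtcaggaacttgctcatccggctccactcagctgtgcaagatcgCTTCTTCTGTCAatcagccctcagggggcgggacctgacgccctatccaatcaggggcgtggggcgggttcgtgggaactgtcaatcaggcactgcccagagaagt
The stretch CTTCTTCTGTCA was picked because the 4 printed promoters share it, so those 4 occurrences were fixed in advance. On either strand it occurred in 6 of the 216 member windows of 300 bases, all 6 in cluster 3. It occurred in 6 of 14980 windows of protein-coding genes (0.0401%), which are these same members. ZNF709, the remaining member of the run, lacked it, and its promoter is not printed. The other members with it were ZNF44 and ZNF823, with log2 ratios of 0.65 and 0.40, so the stretch was also present in members under the threshold. Over the whole window, the pairs within the run ranged from 46.8% identical, for ZNF563 and ZNF799, to 76.5%, for ZNF563 and ZNF443. ZNF442 and ZNF799 were 66.1% identical, ZNF443 and ZNF799 50.6%, and ZNF709 was 51.1% to 53.0% identical to the others. ZNF274 and ZNF677, from separate clusters, were 51.2% identical. Windows were aligned over their full length with end gaps counted, so like stretches at unlike distances from the start lower the value. The printed stretches of ZNF443 and ZNF799 are alike over most of the length they share. Low values here thus do not measure how alike the promoters of the run are.

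Cluster 4, with 37 members between 19.7 and 24.1 Mb, held the genes that expanded in primates, among them ZNF91 and ZNF93, which silence SVA and L1 retrotransposons. Of the 31 members compared, 28 had a ratio below 0, and the median was -0.56, or -0.61 relative to all genes. The reads summed over its members were 38055 in REH and 42828 in 697, a log2 ratio of -0.61 (-0.63 to -0.59). ZNF91 had 2063 and 2060 reads (-0.44, -0.53 to -0.35) and ZNF93 had 1621 and 1575 (-0.40, -0.50 to -0.30). ZNF253, among the most abundant members per kb at 17.2 CPM per kb in REH and 17.6 in 697, was at -0.03 (-0.11 to 0.04). Ratios below 0 were thus spread over most of the cluster, and the calls in it were ZNF257 and ZNF90, higher in 697, and ZNF99, higher in REH. Without scaling of the totals the median of cluster 4 stayed below 0, at -0.25. Of the 17 members not compared, 6 were in this cluster, ZNF729 with its 39 fingers among them.

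ZNF91 was expressed in both lines while ZNF257 of the same cluster was near 0 in REH, and over the 300-base RefSeq windows their promoters were 79.5% identical. The window of ZNF91 is printed because it holds 4 leading words of 10 bases, in capitals, of the member promoters. These were taken in order of frequency, passing over words that largely overlapped one already taken. It covers the 250 bases before the start, chr19:23395472-23395721 on the minus strand (GRCh38.p14).
ZNF91: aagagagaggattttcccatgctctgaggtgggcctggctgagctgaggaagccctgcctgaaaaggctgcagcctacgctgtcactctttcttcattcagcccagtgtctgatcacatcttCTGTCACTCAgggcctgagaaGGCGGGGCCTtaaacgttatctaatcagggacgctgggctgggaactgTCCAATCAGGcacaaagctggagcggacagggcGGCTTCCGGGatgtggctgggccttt
The words were picked from these windows by their frequency, so their excess describes how the members resemble each other. TCCAATCAGG, which contains the CCAAT box bound by the factor NF-Y, was found on either strand in 20.4% of member windows and 0.507% of all coding windows. GGCGGGGCCT was found in 20.4% and 4.53%, CTGTCACTCA in 15.7% and 0.507%, and GGCTTCCGGG in 10.6% and 0.674%. Among ZNF genes of other chromosomes, the first was present in 6.6% of 212 windows. It was found in 2 of 10 members higher in REH, 1 of 9 higher in 697 and 37 of 184 under the threshold.

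Cluster 10, with 42 members between 57.2 and 58.5 Mb near the end of the long arm, leaned to REH. Its median was 0.38 and 31 of 42 members were above 0, 25 of them by less than 1. Summed reads were 43589 in REH and 27444 in 697, a log2 ratio of 0.22 (0.20 to 0.25). Without ZNF274, an alternative chosen after the data were seen, the sums were 40081 and 27442 and the ratio 0.10 (0.08 to 0.12). It held ZNF543 and ZNF274, higher in REH, and ZNF154 and ZNF418, higher in 697.

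In the other clusters, median log2 ratios were 0.58 in cluster 1 (4 members compared), 0.34 in cluster 2 (12), 0.46 in cluster 3 (24), 0.08 in cluster 5 (5), -0.40 in cluster 6 (26), -0.13 in cluster 7 (20), -0.25 in cluster 8 (39) and -0.03 in cluster 9 (15). The extremes of clusters without a call were ZNF57 at -0.24 and ZNF77 at 1.08 in cluster 1, ZNF559 at -0.76 and ZNF426 at 0.87 in cluster 2, and ZNF302 at -0.55 and ZNF792 at 0.51 in cluster 5. In cluster 8, where no member was higher in REH by the rule, the highest ratio was that of ZNF175 at 0.57. With unscaled totals the medians of clusters 7, 8 and 9 turned positive, at 0.17, 0.05 and 0.27. The clusters overlap widely, as the plot of ratios by cluster shows, and members of a cluster share sequence and are not independent measurements. Copy number was not measured, and its part in the cluster medians was not tested.

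**Figure D5:**
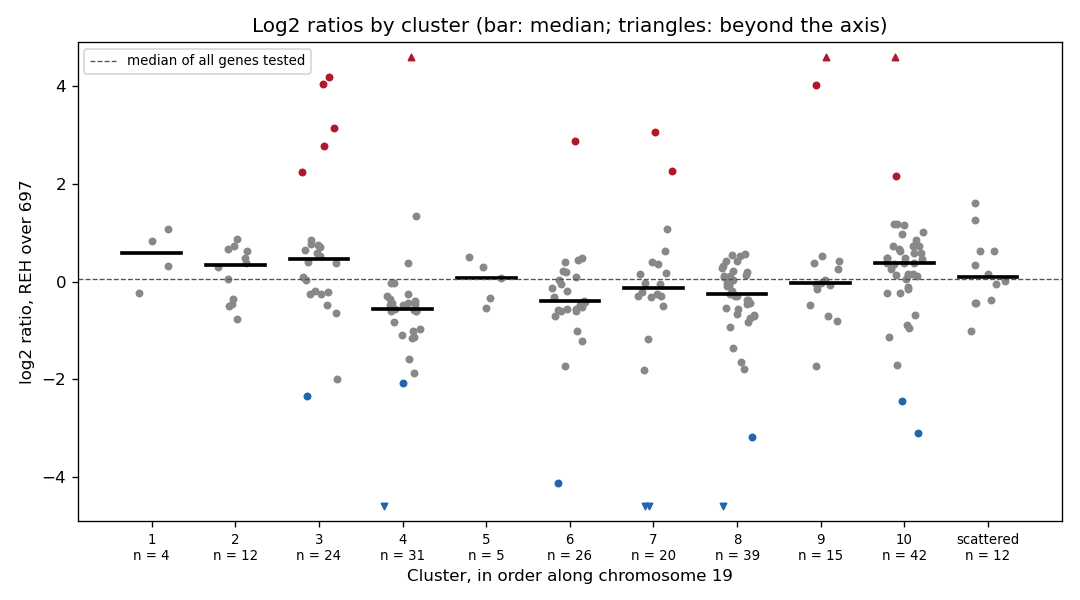
Log2 ratio of REH over 697 (y axis) for the members compared in each of the 10 clusters and for the scattered members (x axis), with the median of each as a black bar and the median of all genes as a dashed line. The bars run from -0.56 in cluster 4 to 0.58 in cluster 1. Triangles are members beyond the axis.

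Of the other members named for a known role, ZNF331, ZNF224 and ZNF146 were within 1 of 0 on the log2 scale. ZNF331, an imprinted gene in some tissues, had 3045 reads in REH and 1923 in 697 (0.22, 0.14 to 0.30). ZNF224, which represses metabolic genes and acts as a cofactor of WT1, had 288 and 261 (-0.30, -0.55 to -0.05). ZNF146 had 9159 and 8964 (-0.41, -0.45 to -0.37). ZNF536, a repressor in neurons, had 1 and 2 reads. ZNF296, a finger gene without a KRAB-like stretch, had 838 and 200 reads, a ratio of 1.62 (1.40 to 1.85) under the threshold. Among members named for their level, ZNF266 (0.48), ZNF317 (0.62), ZNF428 (0.64), ZNF358 (-0.38) and ZNF581 (-0.81) were all within 1 of 0.

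Transcripts of the proteins that KRAB zinc finger proteins work with were present in both lines. Protein levels were not measured. Of 17 cofactors listed, 16 were matched, 0 passed the threshold in either direction, and their median log2 ratio was -0.23. TRIM28 stood at 577 CPM in REH and 684 in 697 (-0.25), and SETDB1, the methyltransferase it recruits, at 95.8 and 86.1 (0.15). The ends of the range were TASOR, a subunit of the HUSH silencing complex, at -0.83 and MORC2, an ATPase that works with HUSH, at 1.08. UHRF1 was not analysed here.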

How the data were processed

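RNA of the REH and 697 cell lines was sequenced, with 1 library each. The deposited values are raw counts of reads per gene, as STAR wrote them, neither normalized nor filtered. The authors' methods give hg38 and poly(A) purification, whereas the submitters' processing notes name hg19 and the labels ribodepletion and stranded libraries. The strand columns were nearly equal, so reads on either strand were used. Which annotation release served for counting is not given in the sources used here.

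Gene IDs were matched without version to GENCODE 44 (GRCh38), which gave symbols, positions and exon lengths: 51996 of 57773 IDs matched. Positions are therefore not the authors' coordinates. Members and gene lists were chosen with earlier results of these data known. A gene was compared if either library held 10 reads or more. Totals were scaled by the trimmed mean of M-values (TMM, edgeR 4.0.16, R 4.3.3), with factors of 1.11 for REH and 0.899 for 697. The study used DESeq2, which needs replicates, and no p-value is given here. Log2 ratios used 0.5 added reads. Clusters were separated by gaps of 500 kb and held at least 4 members.

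Proteins were translated from GENCODE 44 canonical transcripts. A finger was C, 2 to 4 residues, C, 12 residues, H, 3 to 5 residues, H, and a KRAB-like stretch matched 8 of 11 positions of the A box. Promoters were RefSeq windows (GRCh38.p14), from 250 bases before to 50 after the start, the first listed for a gene with several, and 216 of 247 members had one. Windows were aligned end to end, and identity was the share of aligned columns, end gaps counted, that matched.

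Genes named were the 8 in each direction with the interval farthest from 0 among members of at least 100 reads, the 5 highest per kb in each line, the extremes of each cluster, 7 genes with known roles, and any member with 0 reads in 1 library and at least 100 in the other, of which there were none. The alternatives were other scalings, read minimums, added reads, thresholds, strand columns, cluster gaps and leaving out readthrough genes. The ratio, threshold and interval were also tried on simulated counts, with unscaled totals and counting variation only. The values of 1 marker gene are not reported here.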

Additional observations from a re-analysis of the deposited data

How the results depend on the processing

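No paired analysis was possible because REH and 697 had a single library apiece, and for the same reason no replicate could be left out. With unscaled totals the median log2 ratio of the members was 0.26 in place of -0.04. At a log2 ratio of 1 in place of 2, 22 members were higher in REH and 29 in 697. That threshold left 77.8% of the members and 60.2% of all genes under it, so the members again passed it less often. Over the other alternatives the counts were 11 to 16 higher in REH and 9 to 12 higher in 697. Of the 23 called members, 20 passed the threshold in all 6 settings of scaling, added reads and strand column. ZNF90 was lost with unscaled totals (-1.76) and in the first strand column (-1.87), ZNF709 with 5 reads added (1.31), and ZNF221 with 5 reads added (1.84) and in the first strand column (1.95). ZNF69 passed it with DESeq2 size factors (-2.01) and ZNF534 in the second strand column (-2.06). With 5 reads added the ratios of members near 0 in 1 line shrank, to -8.03 for ZNF677, -7.26 for ZNF257 and 3.84 for ZNF99. ZNF57, ZNF253 and ZNF224 changed sign with unscaled totals, to 0.07, 0.27 and 0.00486. The median of cluster 9 was 0.01 in the second strand column and 0.36 with a gap of 1000 kb, which joined it to cluster 10. Depth limits a member with 3 reads to 0.0597 CPM in REH and 0.0812 CPM in 697.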

Other observations

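Transcripts next to the members were counted as well. Of 26 antisense or divergent long non-coding RNAs named after a member, 22 reached 10 reads. By at least 4-fold, 3 (13.6%) were higher in REH, where 12.5% of all genes were, and 3 (13.6%) higher in 697, where 8.15% of all genes were, and 17 of the 22 had a log2 ratio of the same sign as their partner. ZNF667-AS1 had 318 reads in REH and 0 in 697, beside 670 and 4 for ZNF667. ZNF793-AS1 had 41 and 1, beside 632 and 63 for ZNF793. ZNF528-AS1 had 459 and 2256, a log2 ratio of -2.74 (-2.89 to -2.60), beside -3.17 for ZNF528. ZNF790-AS1 had 8 and 161 reads, beside 370 and 339 for ZNF790, with the same sign but far from it in size. ZNF649-AS1, with 14 and 2 reads, went against ZNF649, with 779 and 704. Reads from overlapping exons of such partners cannot be told apart without strand and were counted for neither gene. These RNAs were chosen after their values were seen.

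Of 18 ZNF pseudogenes of chromosome 19, 10 reached 10 reads. By the same threshold 4 (40.0%) were higher in 697, where 8.15% of all genes were. In REH 0 were higher, where 12.5% of all genes were. These shares rest on few genes. ZNF826P, in cluster 4, had 0 reads in REH and 284 in 697. ZNF542P had 3 and 202, ZNF702P had 1 and 47, and ZNF849P had 15 and 56. Among 15 zinc finger genes of other names on the chromosome, 11 were compared. ZSCAN1, with 0 reads in REH and 51 in 697, was the 1 past the threshold (9.09%, near the 8.15% of all genes higher in 697).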
